A study of Mus musculus with 12 samples.

Results

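Cdkn1a, Mdm2, Ccng1, Phlda3, Trp53inp1, Btg2, Aen, Zmat3, Sesn2 and Plk2 are genes that the transcription factor p53 activates. Their RNA was followed over the length of 4-thiouridine (4sU) labelling in the mouse fibroblast line NIH-3T3, which is immortalised. The 10 genes were taken by symbol from the 17419 genes of the authors' table, and all 10 were found. They were selected on their place in the p53 pathway with their total RNA at 120 min in these data already known, so values that use the 120 min libraries are given as a description, without a test. Tests were made on the libraries of 30, 60 and 90 min, which were treated as not used in the choice. Exactly which values the choice used is not stated, so these p-values may not be independent of it.

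Wild-type (WT) NIH-3T3 cells were labelled for 15, 30, 60, 90 or 120 min with 4sU at 800 µM, or left without it (no4sU), and each of these 6 groups had the replicates A and B, 12 libraries in all. In SLAM-seq, iodoacetamide (IAA) alters the 4sU in new RNA, and sequencing then shows a C where the RNA had U. From these conversions the authors estimated for each gene the new-to-total ratio (NTR), the share of its RNA made during labelling. The series title gives the question, which is how the duration of labelling affects quantification. All groups share the cell line, genotype and medium, and the labels do not say whether the RNA without 4sU also received IAA. They do not say that A and B were separate cultures either, so p-values measure the spread between these libraries, which may be technical.

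p53 is a transcription factor that cells stabilise under DNA damage and other stress. It binds paired copies of a short palindromic half-site and activates genes that halt the cell cycle, repair DNA, restrain growth or start cell death. Mdm2, itself a target, marks p53 for degradation and closes a feedback loop. Fibroblasts make many of these transcripts at a basal level without added stress, and several are short-lived, so that their level follows synthesis closely.

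Total reads per library were between 9917026 and 13739380, and 11564 genes passed the filter on low counts, with all 10 p53 targets among them. Levels are given as CPM, counts scaled to trimmed-mean (TMM) library sizes, with factors of 0.970 to 1.02. The 8 fibroblast markers, such as Col1a1 and Vim, summed to between 13980 and 17350 CPM per library. Markers of other cell types were low. The endothelial list summed to between 0.75 and 1.70 CPM, the muscle list to between 0 and 0.301 CPM, and epithelial Cdh1 lay between 0 and 0.388 CPM. Of the leukocyte list, Ptprc stayed at or under 0.271 CPM and Cd68 was between 4.20 and 6.76 CPM. Replicates A and B of the no4sU group stood further apart than the others. The SD over 9065 genes of their log2 difference was 0.21, against 0.11 to 0.12 in the labelled groups, and the no4sU difference followed gene length (Spearman's rho -0.58 over genes, which are no independent replicates). Results that move without 1 of them are given with and without it. In bulk RNA, fewer cells with a transcript and less of it per cell cannot be told apart.

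Per length, the 10 transcripts covered a wide range of levels. Over the 12 libraries, Ccng1 was highest at 65.4 ± 5.16 CPM per kilobase (SD). Phlda3 at 57.3 ± 5.71, Cdkn1a at 55.1 ± 7.16 and Plk2 at 54.3 ± 4.61 followed and differed by less than their SD. Ccng1 stood above Phlda3 by more than the SD of either, though Phlda3 was higher in no4sU replicate A (60.4 against 56.5). Without 4sU, Plk2 (59.5 and 59.8 CPM per kilobase in A and B) and Ccng1 (56.5 and 62.3) overlapped. Mdm2 at 32.1 ± 2.74 and Aen at 31.5 ± 1.31 CPM per kilobase formed the next step and overlapped. Sesn2 at 13.0 ± 0.993 and Zmat3 at 12.6 ± 0.501 overlapped as well. Btg2 at 3.40 ± 0.793 and Trp53inp1 at 1.79 ± 0.288 CPM per kilobase were lowest. Their mean counts per library were 106 and 112 reads, against 2627 for Ccng1, so their values are the least precise. The coefficient of variation of the level over all 12 libraries ran from 3.98% for Zmat3 and 4.15% for Aen to 13.0% for Cdkn1a, 16.1% for Trp53inp1 and 23.3% for Btg2.

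The plot of CPM by library shows the course of total RNA. From 30 to 90 min no target passed the test described below. At 120 min 8 of the 10 were higher than at 90 min without overlap of the libraries, beside 21.4% of all tested genes. Among those with high counts, Cdkn1a, Mdm2 and Ccng1 stood out most. This is a description, since the 120 min results were known when the genes were chosen.

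**Figure D1:**
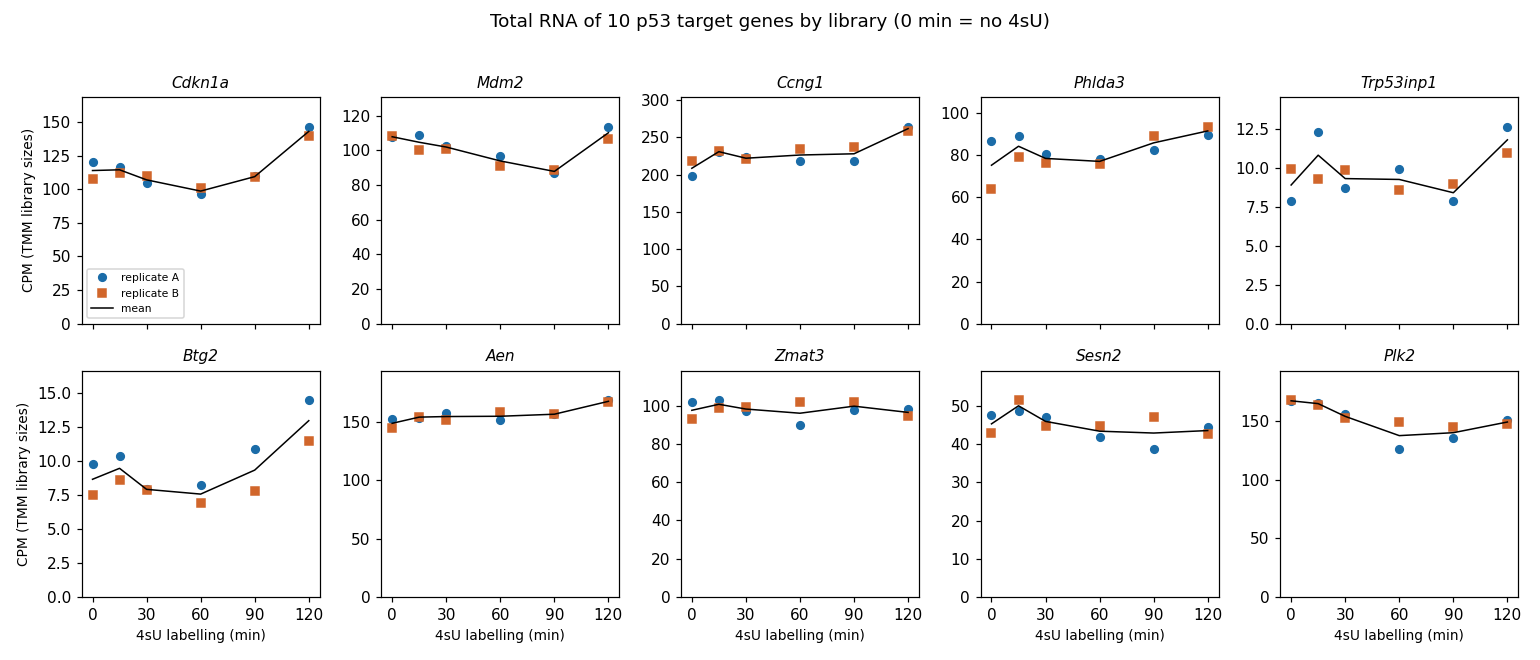
Total RNA in CPM against labelling time in min (0 stands for no 4sU), 1 panel per gene; points are the libraries of replicate A and B and lines join the group means. Cdkn1a lay between 96.5 and 120 CPM in the first 10 libraries and at 147 and 140 CPM at 120 min.

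The genes that act on the cell cycle come first. Cdkn1a (ENSMUSG00000023067, chr17:29090976-29100727, plus strand) encodes p21, the inhibitor of cyclin-dependent kinases and the best known p53 target. Its total RNA in A and B was 120 and 108 CPM (no4sU), 117 and 113 CPM (15 min), 105 and 110 CPM (30 min), 96.5 and 101 CPM (60 min), 110 and 109 CPM (90 min), then 147 and 140 CPM (120 min). The 60 min pair was the lowest and the 120 min pair the highest, and neither overlapped another pair. In the edgeR quasi-likelihood test over all genes, 60 against 30 min gave a log2 fold change of -0.11 ± 0.066 (SE, adjusted p = 1) and 90 against 30 min one of 0.03 ± 0.066 (adjusted p = 0.861). For 90 against 60 min edgeR gave 0.15 ± 0.066 (SE, adjusted p = 0.940). Against no4sU, 120 min was higher by 0.33 ± 0.063 on the log2 scale, and against 15 min by 0.32 ± 0.063, as a description.

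Ccng1 (ENSMUSG00000020326, chr11:40748552-40755311, minus strand) encodes cyclin G1, which recruits the phosphatase PP2A to Mdm2. Its libraries held 198 and 219 CPM (no4sU), 230 and 231 CPM (15 min), 223 and 221 CPM (30 min), 219 and 234 CPM (60 min), 219 and 237 CPM (90 min), then 264 and 259 CPM (120 min). The labelled pairs up to 90 min overlapped or lay close together, and the 120 min pair stood above all others. The log2 fold change of 90 against 30 min was 0.04 ± 0.060 (SE, edgeR adjusted p = 0.811), and that of 120 min against no4sU was 0.33 ± 0.059. Against 15 min the 120 min value was 0.18 ± 0.059.

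Btg2 (ENSMUSG00000020423, chr1:134075170-134079120, minus strand) encodes an antiproliferative protein that recruits the CCR4-NOT deadenylase to messenger RNA. Its levels were 9.83 and 7.52 CPM (no4sU), 10.4 and 8.59 CPM (15 min), 7.97 and 7.89 CPM (30 min), 8.23 and 6.93 CPM (60 min), 10.9 and 7.83 CPM (90 min), then 14.5 and 11.5 CPM (120 min). The 120 min pair was above every other library, and the pairs at 15 and 90 min spread widely. The log2 fold change was 0.24 ± 0.191 (SE, edgeR adjusted p = 0.605) for 90 against 30 min and 0.59 ± 0.169 for 120 min against no4sU. Against 15 min the 120 min value was 0.44 ± 0.168.

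Of the genes that act on p53 itself, Mdm2 (ENSMUSG00000020184, chr10:117688875-117710758, minus strand), the ubiquitin ligase for p53, had a dip before its highest labelled value. Its total RNA was 108 CPM in both no4sU libraries, 109 and 101 CPM (15 min), 103 and 101 CPM (30 min), 96.7 and 91.2 CPM (60 min), 87.0 and 88.8 CPM (90 min), then 114 and 107 CPM (120 min). Both 90 min libraries were below every other library. Both 120 min libraries were above those of 30, 60 and 90 min and overlapped those without 4sU and at 15 min. The log2 fold change of 90 against 30 min was -0.22 ± 0.065 (SE, edgeR adjusted p = 0.147, unadjusted p = 0.00339). Without no4sU replicate A the edgeR adjusted p was 0.0107, without no4sU replicate B 0.0134, in the fit of the 10 labelled libraries 0.0104, in the fit of the 30 and 90 min libraries alone 0.0153 and with library size as the only scaling 0.0446, at log2 fold changes of -0.22, -0.22, -0.22, -0.22 and -0.26. At 120 min Mdm2 was at 0.03 ± 0.062 (SE) against no4sU and 0.07 ± 0.063 against 15 min on the log2 scale.

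Plk2 (ENSMUSG00000021701, chr13:110395046-110400844, plus strand) encodes polo-like kinase 2, which is also an immediate early gene. Its libraries held 167 and 168 CPM (no4sU), 166 and 164 CPM (15 min), 155 and 152 CPM (30 min), 126 and 149 CPM (60 min), 135 and 144 CPM (90 min), then 151 and 147 CPM (120 min). All 8 libraries from 30 to 120 min were below the 4 others. The log2 fold change was -0.14 ± 0.068 (SE, edgeR adjusted p = 0.375) for 90 against 30 min and -0.17 ± 0.066 for 120 min against no4sU. Against 15 min the 120 min value was -0.14 ± 0.066. Trp53inp1 (ENSMUSG00000028211, chr4:11156431-11174379, plus strand) encodes a stress protein that promotes phosphorylation of p53. It was measured at 7.84 and 9.95 CPM (no4sU), 12.3 and 9.31 CPM (15 min), 8.73 and 9.89 CPM (30 min), 9.91 and 8.59 CPM (60 min), 7.86 and 8.94 CPM (90 min), then 12.6 and 11.0 CPM (120 min). The 120 min pair overlapped that of 15 min and lay above the rest. Its log2 fold change was -0.15 ± 0.175 (SE, edgeR adjusted p = 0.740) for 90 against 30 min and 0.38 ± 0.157 for 120 min against no4sU. Against 15 min the 120 min value was 0.12 ± 0.1545, less than its SE.

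The other targets act in cell death, growth control and RNA metabolism. Phlda3 (ENSMUSG00000041801, chr1:135766119-135769136, plus strand), whose pleckstrin homology domain competes with that of Akt, was at 86.7 and 64.0 CPM without 4sU and between 76.0 and 89.5 CPM from 15 to 90 min. At 120 min it was at 89.7 and 93.7 CPM, the highest pair. Its no4sU libraries differed more than any labelled pair. The log2 value of 120 min was 0.29 ± 0.097 (SE) against no4sU and 0.12 ± 0.097 against 15 min. Aen (ENSMUSG00000030609, chr7:78895854-78911209, plus strand), an exonuclease induced during apoptosis, was between 145 and 158 CPM in the first 10 libraries and at 169 and 167 CPM at 120 min, a log2 difference from no4sU of 0.17 ± 0.055. Against 15 min the log2 value of Aen at 120 min was 0.12 ± 0.055. Phlda3 and Aen had log2 fold changes of 0.13 and 0.02 for 90 against 30 min (edgeR adjusted p = 0.593 and 0.919).

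Zmat3 and Sesn2 were not higher at 120 min. Zmat3 (ENSMUSG00000027663, chr3:32334792-32366014, minus strand), a zinc finger protein that binds RNA, lay between 90.1 and 103 CPM in all 12 libraries, with 98.3 and 94.5 CPM at 120 min. Sesn2 (ENSMUSG00000028893, chr4:132492032-132510501, minus strand), a sestrin that restrains mTORC1, lay between 38.6 and 51.5 CPM, with 44.5 and 42.5 CPM at 120 min, inside the range of the other groups. Their log2 fold changes against no4sU were -0.01 ± 0.069 and -0.05 ± 0.090 (SE) at 120 min. Against 15 min they were -0.06 ± 0.069 and -0.20 ± 0.089. For 90 against 30 min they were 0.02 (edgeR adjusted p = 0.918) and -0.10 (edgeR adjusted p = 0.654).

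Across the 30, 60 and 90 min libraries, treated as not used in the choice of genes, none of the 10 targets passed the edgeR test. Of all 11564 genes, 0.0% passed for 60 against 30 min, 0.527% (61 genes, 2 higher and 59 lower) for 90 against 30 min and 0.0% for 90 against 60 min. At an unadjusted p under 0.05, edgeR gave 480 genes for 60 against 30 min, 1598 for 90 against 30 min and 527 for 90 against 60 min, and DESeq2 called 0, 52 and 0 genes, with 149, 907 and 179 at an unadjusted p under 0.05. The median log2 fold change of the targets was -0.05 for 60 against 30 min, 0.02 for 90 against 30 min and 0.02 for 90 against 60 min, beside 0.00, 0.01 and 0.00 over all tested genes. Both 90 min libraries were above both 30 min libraries for 1 target, Phlda3, against 27.0% of all tested genes, and below them for 2, Mdm2 and Plk2, against 23.9%. These shares were near the background or under it. In place of 61, edgeR called 889 genes without no4sU replicate A, 903 without no4sU replicate B, 3 or 1 without 30 min replicate A or B, 18 or 9 without 90 min replicate A or B, 25 or 31 without 15 min replicate A or B and 37 or 36 without 120 min replicate A or B. Without no4sU replicate A or B it called 21 or 19 genes for 60 against 30 min and again 21 or 19 for 90 against 60 min. It called 2 for 60 against 30 min without 60 min replicate B and 2 for 90 against 60 min without 60 min replicate A.

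The step from 90 to 120 min was looked at after the values had been seen. Both 120 min libraries were above both 90 min libraries for 8 of the 10 targets, all but Zmat3 and Sesn2, beside 21.4% of all tested genes, and below them for 0 targets, beside 25.2%. The log2 differences were 0.49 ± 0.165 (SE) for Trp53inp1, 0.46 ± 0.172 for Btg2, 0.39 ± 0.064 for Cdkn1a, 0.33 ± 0.064 for Mdm2 and 0.20 ± 0.059 for Ccng1, and between -0.05 and 0.10 for the other 5. The median over the targets was 0.15, and 9 of 10 were above 0, beside a median of -0.01 and 47.5% above 0 over all tested genes. Against no4sU, both 120 min libraries were higher for 6 targets, beside 25.0% of all tested genes, and lower for 1, Plk2, beside 26.6%. Nothing is read from these shares, since the 120 min results were known when the genes were chosen.

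**Figure D2:**
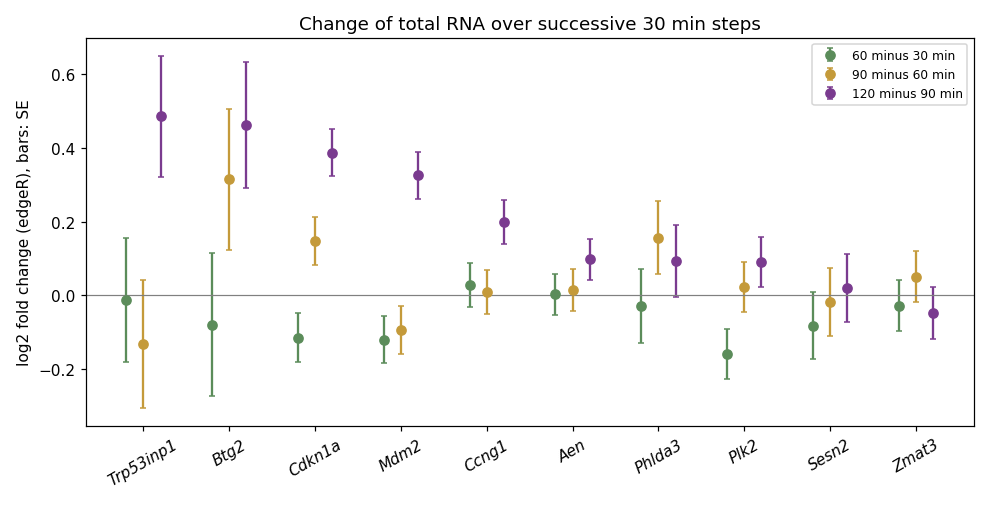
Log2 fold change of total RNA from the edgeR fit (vertical axis) for each gene (horizontal axis) over the steps 30 to 60, 60 to 90 and 90 to 120 min; bars are 1 SE. The step to 120 min was 0.39 for Cdkn1a and 0.33 for Mdm2, where the step from 60 to 90 min was 0.15 and -0.09.

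The NTR placed most of the targets among the fast-turning transcripts. Over the 9065 genes whose mean count reached 100, the median NTR was 1.06% (15 min), 5.25% (30 min), 15.5% (60 min), 24.5% (90 min) and 35.4% (120 min). Plk2 and Btg2 were replaced fastest. Plk2 had an NTR of 9.86% ± 2.71 (15 min, SD with n = 2), 51.4% ± 0.679 (30 min) and 95.7% ± 0.735 (60 min), and its posterior maximum was 100% from 90 min on. Btg2 had 42.3% ± 0.552 at 30 min and 94.6% ± 7.69 at 60 min, with 90% intervals at 60 min of 81.3% to 99.2% in replicate A and 70.3% to 97.1% in replicate B. Both were at the 99th percentile of genes or above from 30 min on.

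Cdkn1a, Mdm2, Sesn2 and Trp53inp1 came next. Cdkn1a had an NTR of 5.90% and 3.71% in A and B (15 min), 25.5% and 26.7% (30 min), 57.5% and 61.2% (60 min), 86.0% and 78.2% (90 min), then 94.2% and 98.8% (120 min). Mdm2 started lower, with 4.05% and 2.53% (15 min), 18.1% and 17.0% (30 min), 48.6% and 48.1% (60 min), 77.3% and 72.6% (90 min), then 96.9% and 95.4% (120 min). The 90% intervals of Cdkn1a and Mdm2 did not overlap at 30 min and did at 120 min. Sesn2 moved from 27.5% ± 1.42 (SD, n = 2) at 30 min to 84.6% ± 2.56 at 90 min, and Trp53inp1 from 29.4% ± 13.6 to 76.0% ± 2.07. At 120 min the 4 genes were at or above the 95th percentile of genes.

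Phlda3, Zmat3, Aen and Ccng1 kept more old RNA. Phlda3 had an unusual course, with the 100th percentile of genes at 15 min (16.0% and 7.74% in A and B) and the 80th at 120 min (68.2% ± 0.403). Zmat3 and Aen had an NTR of 57.6% ± 1.64 and 58.5% ± 0.644 at 120 min (SD, n = 2), at the 73rd and 74th percentile. Ccng1 was the only target whose mean was below the median of genes at every duration from 15 to 120 min, with 0.84% ± 0.325 (15 min), 8.98% ± 1.37 (60 min) and 23.1% ± 0.191 (120 min), the 30th percentile. This was the lowest NTR of the 10 at 120 min.

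**Figure D3:**
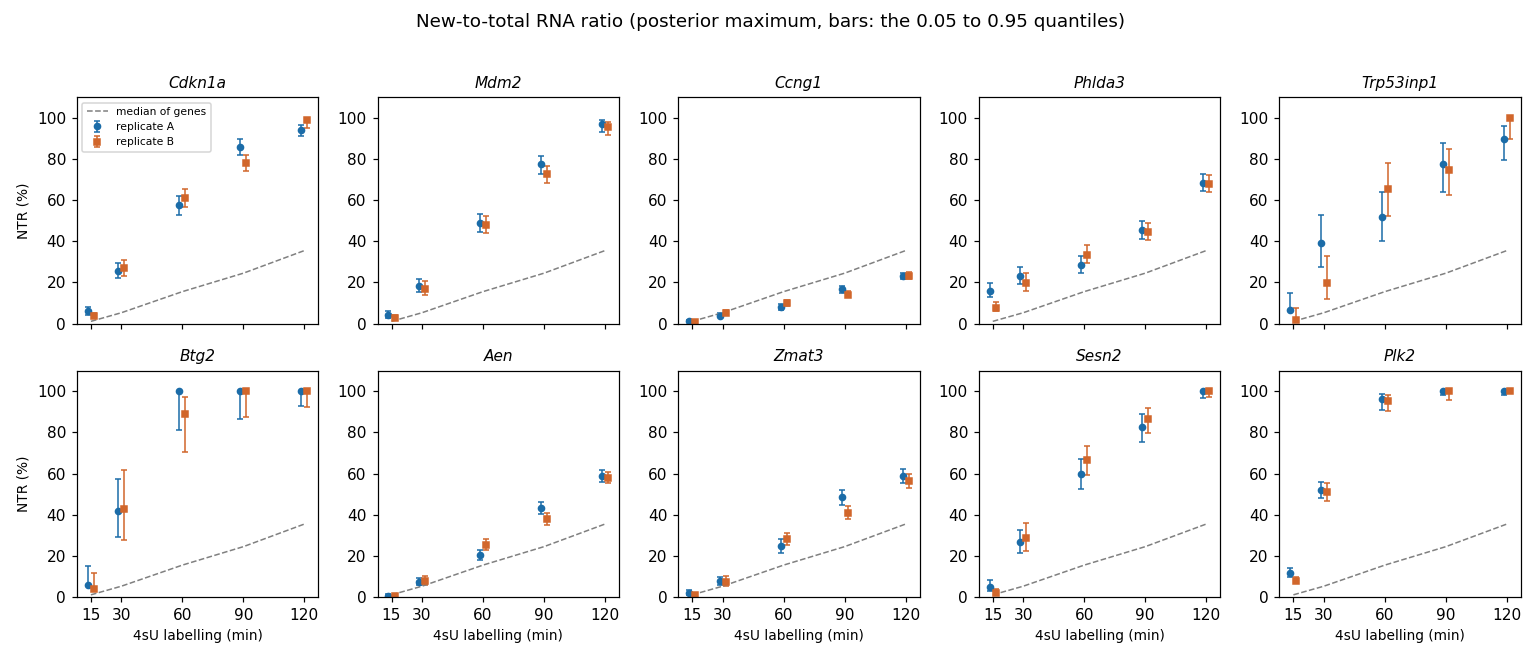
NTR in percent (vertical axis) against labelling time in min, 1 panel per gene; points are the posterior maximum of each library, bars the 0.05 to 0.95 quantiles and the dashed line the median over 9065 genes. Plk2 and Btg2 had a mean of 95.7% and 94.6% at 60 min, and Ccng1 was below the dashed line in the mean of every duration.

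An apparent half-life puts the durations on a common scale. It is ln 2 times the labelling time over -ln(1 - NTR) and would be the same at every duration for a gene at a constant level with labelling from the first minute. For Cdkn1a it was 223 ± 73.6 min (SD, n = 2) from the 15 min libraries, 68.7 ± 2.60 from 30 min, 46.3 ± 3.26 from 60 min, 36.4 ± 6.52 from 90 min and 24.1 ± 7.32 from 120 min. Mdm2 gave 329 ± 109, 108 ± 5.48, 62.9 ± 0.639, 45.1 ± 4.36 and 25.4 ± 2.16 min. Both values thus became shorter at every step. So did those of the other targets except Phlda3, at the durations that gave a half-life. Phlda3 had 94.3 ± 49.2, 86.9 ± 11.0, 113 ± 15.3, 104 ± 1.68 and 72.6 ± 0.803 min. A half-life over all genes is not given here, so the shortening is not read as a trait of these targets. Ccng1 gave the longest values, with 466 ± 96.1 min from 30 min and 316 ± 2.98 min from 120 min, and Plk2 the shortest, with 13.2 ± 0.721 min from 60 min. Zmat3 and Aen gave 97.0 and 94.7 min from 120 min. These values are no constants of the genes, since they change with the duration that gives them.

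Multiplying each library's CPM by its NTR splits total RNA into a new and an old part. For Cdkn1a the new part was 5.53 ± 1.92 CPM (15 min), 28.0 ± 1.86 CPM (30 min), 58.7 ± 4.51 CPM (60 min), 89.9 ± 6.32 CPM (90 min) and 138 ± 0.117 CPM (120 min, SD with n = 2). Its old part was 109, 79.1, 40.1, 19.6 and 5.16 CPM at these durations. New Cdkn1a RNA was thus larger by 31.2 CPM from 60 to 90 min and by 48.2 CPM from 90 to 120 min, in the same 30 min of time. New Mdm2 RNA was 45.4 ± 2.20 CPM (60 min), 65.8 ± 1.98 CPM (90 min) and 106 ± 5.90 CPM (120 min), steps of 20.4 and 40.2 CPM, and its old part was 48.5, 22.0 and 4.19 CPM. For Ccng1 the steps of new RNA were 14.4 and 25.8 CPM, and its old part was between 193 and 229 CPM throughout.

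In 8 of the 10 targets the gain of new RNA from 90 to 120 min was larger than that from 60 to 90 min, beside 54.6% of the 9065 genes, and nothing is read from this since it uses the 120 min libraries. Zmat3 (19.1 then 11.1 CPM) and Sesn2 (8.91 then 7.17 CPM) were the exceptions. New RNA at 120 min over that at 90 min was 1.75 for Trp53inp1, 1.74 for Ccng1, 1.61 for Mdm2 and Phlda3, 1.54 for Cdkn1a and Aen, and 1.39 for Btg2. These 7 were above the median of all 9065 genes, which was 1.38, and Zmat3 at 1.25, Sesn2 at 1.20 and Plk2 at 1.06 were below it. Plk2 and Btg2 were at an NTR of 100% in both groups, so their ratio is that of total RNA. In this ratio Ccng1 was above 92.6% of genes and Trp53inp1 above 92.8%.

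**Figure D4:**
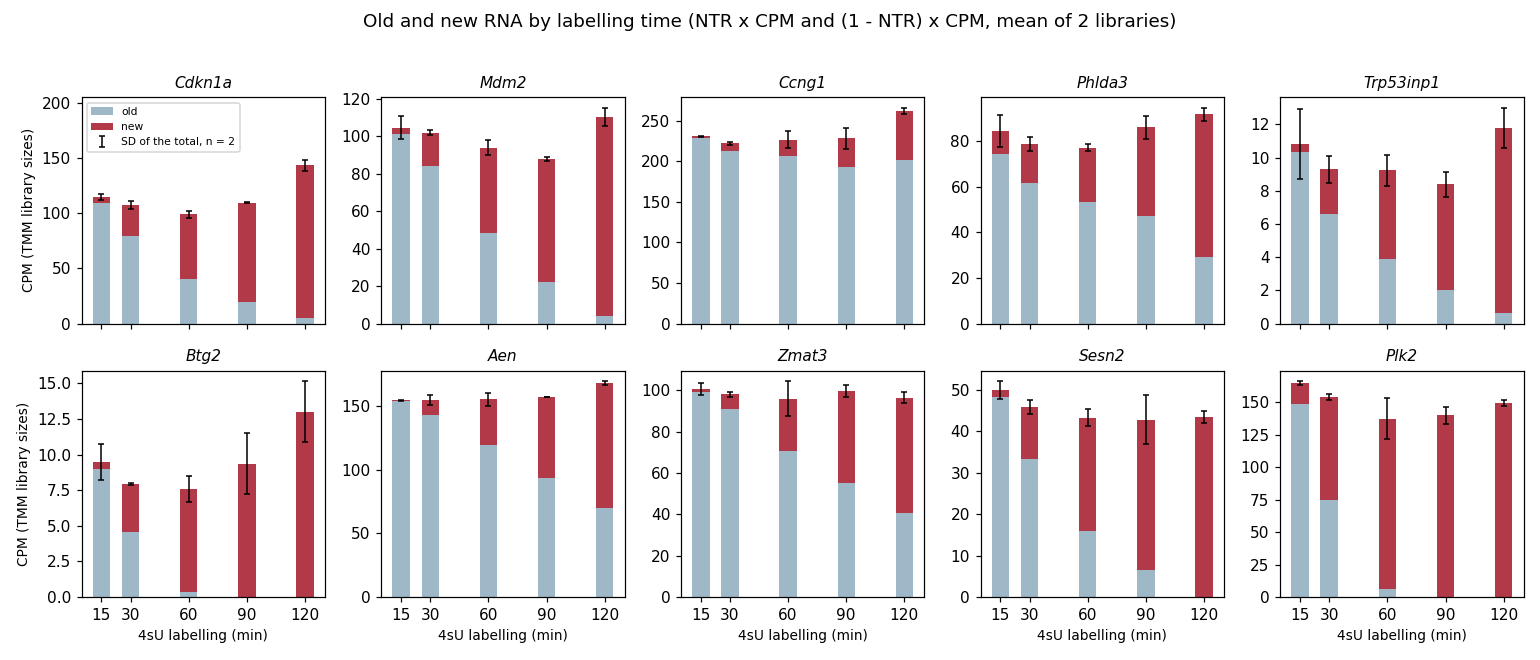
New RNA (NTR times CPM) stacked on old RNA in CPM against labelling time in min, 1 panel per gene; bars are the mean of 2 libraries and error bars the SD of the total. For Cdkn1a the new part was 89.9 CPM at 90 min and 138 CPM at 120 min, and the old part 19.6 and 5.16 CPM.

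To compare each target with genes of its own turnover and abundance, it was set beside the 100 other genes nearest to it in NTR and mean count at each duration. The measure was the log2(CPM + 1) change against the 15 min pair, minus the median change of the like genes, which understates changes of low genes. For Cdkn1a the like genes had an NTR, as a fraction, between 0.858 and 1 at 120 min and a median change of -0.30, where Cdkn1a itself was at 0.32, a difference of 0.61 ± 0.025 (SD, n = 2). Of its 100 like genes, 99 were below it. Mdm2 was at 0.07 where its like genes were at -0.30, a difference of 0.36 ± 0.039 with 97 of 100 below it. Matches were looser for Plk2. At 30 min its NTR was 0.514 and its mean count 1741, and its like genes had an NTR of 0.315 to 0.700 and counts of 109 to 9265.

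Followed over the durations, the median difference was smaller up to 90 min than at 120 min, while single targets spread at each duration. The median over the 10 targets was -0.06 (30 min, from -0.18 to 0.01), -0.06 (60 min, from -0.12 to 0.03), 0.04 (90 min, from -0.15 to 0.18) and 0.29 (120 min, from 0.08 to 0.61). At 30 min 8 targets were below their like genes in both libraries and 4 were under the like genes' 10th percentile (Ccng1, Phlda3, Btg2 and Trp53inp1). Against the no4sU pair in place of the 15 min pair, 5 were below in both libraries at 30 min and 2 under the 10th percentile, and Ccng1 (0.05), Phlda3 (0.06) and Trp53inp1 (0.10) were above their like genes. At 90 min 4 were above in both libraries (Cdkn1a, Phlda3, Aen and Zmat3) and 3 below in both (Mdm2, Ccng1 and Trp53inp1). Against the no4sU pair these were 5 above in both and 1 below (Mdm2), with a median of 0.09. At 120 min all 10 were above in both libraries, and 7 were over the like genes' 90th percentile. The 15 min libraries are shared by all of these values, and leaving 15 min replicate B or A out gave a median of 0.21 or 0.34 at 120 min. Without 15 min replicate A the median was -0.03 at 30 min and 0.00 at 60 min, and without 90 min replicate B it was -0.02 at 90 min. The counts of targets above or below their like genes stand without the share of all genes, so nothing is read from them.

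The values of single targets at 90 and 120 min follow, and whether targets differed in when they left their like genes was not tested. Cdkn1a was at -0.06 ± 0.032 (30 min, SD with n = 2), -0.07 ± 0.020 (60 min) and 0.15 ± 0.024 (90 min), so both of its 90 min libraries were already above the median, with 90 of 100 like genes below. Mdm2 was at -0.05 ± 0.046 at 90 min and Ccng1 at -0.09 ± 0.098, and both were above at 120 min, Ccng1 by 0.11 ± 0.001. Aen was at 0.07 ± 0.026 at 90 min and 0.28 ± 0.004 at 120 min, and Phlda3 at 0.11 ± 0.117 and 0.31 ± 0.058. Btg2 was at 0.18 ± 0.296 at 90 min, where A and B lay on either side of their like genes, and at 0.60 ± 0.217 at 120 min. Trp53inp1 was at -0.15 ± 0.157 and 0.32 ± 0.124. The 90 min values depend on the reference. Against the no4sU pair Cdkn1a was at 0.11 ± 0.005 with 85 of 100 like genes below, Phlda3 at 0.25 ± 0.116 with 99 below, Ccng1 at 0.04 ± 0.092, Trp53inp1 at 0.09 ± 0.151 and Mdm2 at -0.15 ± 0.042.

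Sesn2 and Zmat3 differed least from their like genes at 120 min, by 0.08 ± 0.043 and 0.09 ± 0.023. These and Plk2, at 0.16 ± 0.017, lay inside the 10th to 90th percentile of their like genes. The changes of Sesn2, Zmat3 and Plk2 themselves against 15 min were -0.20, -0.06 and -0.14. Set against the no4sU pair in place of the 15 min pair, the median difference at 120 min was 0.27 (from 0.07 to 0.74), again with 10 of 10 above in both libraries. Btg2 (0.74), Trp53inp1 (0.58) and Cdkn1a (0.56) were then highest and Plk2 (0.07) lowest. From 90 to 120 min it was 0.20 (from 0.05 to 0.48), with 8 over the 90th percentile of their like genes. Nothing is read from these counts either.

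**Figure D5:**
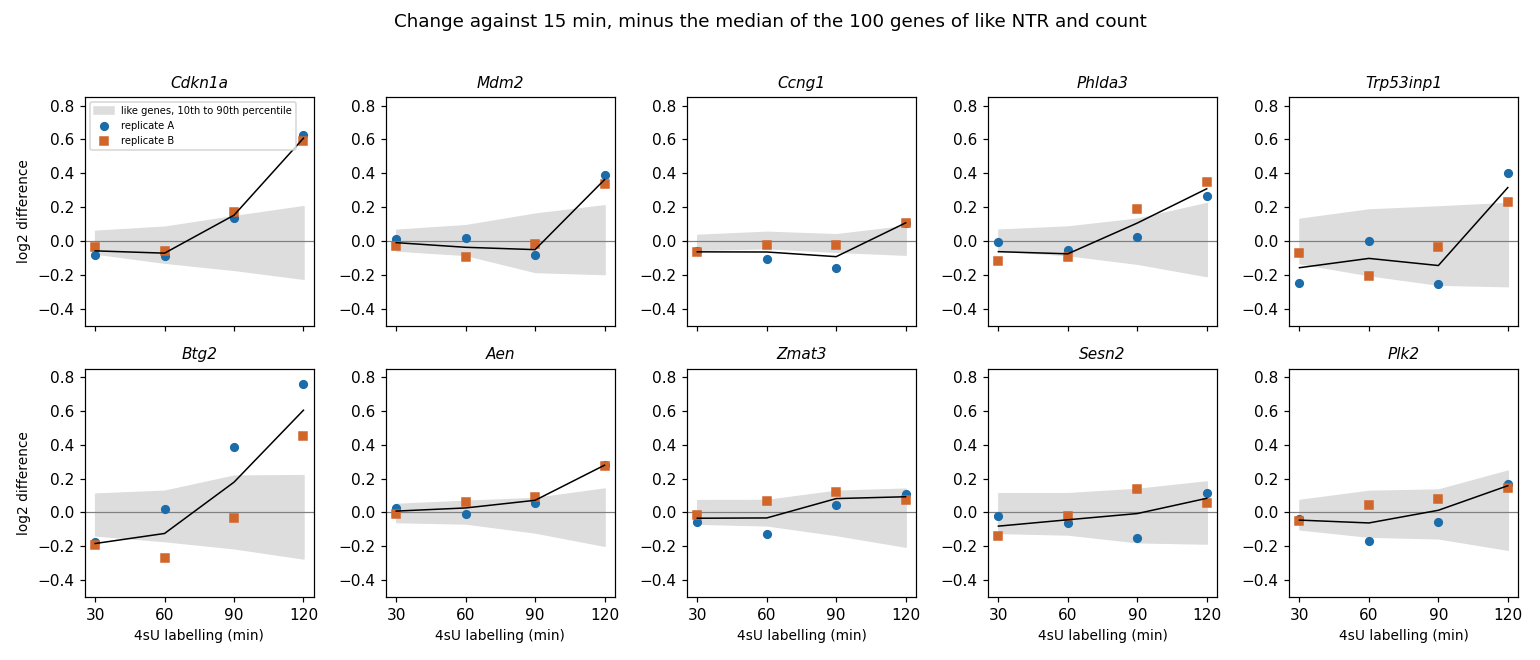
Log2 change against the 15 min pair minus the median of the 100 genes of like NTR and count (vertical axis) by labelling time in min, 1 panel per gene; points are libraries, lines the means and grey the 10th to 90th percentile of the like genes. Cdkn1a was at -0.07 at 60 min, 0.15 at 90 min and 0.61 at 120 min, and Sesn2 stayed within the grey band in its mean.

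The promoters of 8 of the 10 targets had a RefSeq window (GRCm38.p6, 250 bases before to 50 after a transcript start; 10 windows), and these were searched for the p53 half-site, a 10-base consensus that is its own reverse complement, so that 1 strand covers both. A pair of exact half-sites with a spacer of at most 13 bases was in 24 of 32851 windows (0.0731%), and a pair with at most 1 mismatch in 206 (0.627%). The fixed C and G of each half-site had to match, so a mismatch could fall only at its other bases. Cdkn1a was the only target with an exact pair, in the window of its upstream start. It is shown for that reason, beside Ccng1, which had a pair with 1 mismatch. The bases before the start are printed on the gene's strand, 5′ to 3′, with the half-sites of these pairs, each with at most 1 mismatch, in capitals, for chr17:29090729-29090978 (plus strand) and chr11:40755287-40755536 (minus strand).
Cdkn1a: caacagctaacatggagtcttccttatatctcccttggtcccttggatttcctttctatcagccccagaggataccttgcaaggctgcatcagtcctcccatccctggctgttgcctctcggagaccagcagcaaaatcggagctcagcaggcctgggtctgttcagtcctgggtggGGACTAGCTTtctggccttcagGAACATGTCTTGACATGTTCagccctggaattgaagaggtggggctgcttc
Ccng1: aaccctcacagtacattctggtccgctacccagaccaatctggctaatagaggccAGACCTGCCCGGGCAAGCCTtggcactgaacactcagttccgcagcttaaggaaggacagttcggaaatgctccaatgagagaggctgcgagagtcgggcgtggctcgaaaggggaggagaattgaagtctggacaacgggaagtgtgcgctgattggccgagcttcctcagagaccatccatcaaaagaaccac
In the Cdkn1a window the exact pair is formed by the half-sites at bases 178 to 187 and 200 to 209, with a spacer of 12. The third half-site in capitals, at bases 210 to 219, follows directly and has 1 mismatch to the consensus. In Ccng1 the half-site at bases 56 to 65 has the 1 mismatch and that at bases 66 to 75 is exact. At least 1 exact half-site was in 1 Cdkn1a window, those of Mdm2 and Ccng1 and both of Aen, beside 8.36% of all windows. None was in the other Cdkn1a window or in those of Phlda3, Btg2, Sesn2 and Plk2. A match is a description of letters, and p53 binding was not measured.

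Other p53-activated genes were counted from lists fixed for this pathway. In cell cycle and repair, 11 of 11 genes were tested and 0 passed the edgeR test in any of the 3 comparisons of 30, 60 and 90 min. The largest log2 values of 90 against 30 min were -0.40 for Gadd45a, a growth arrest protein, -0.29 for the DNA polymerase gene Polk and -0.27 for Xpc, which senses DNA damage. In cell death, 8 of 11 were tested and 0 passed, with -0.42 for the receptor gene Eda2r, 0.42 for the death receptor gene Fas, at a mean count of 9.50 reads, and -0.21 for Apaf1 of the apoptosome. In metabolism and signalling, 10 of 12 were tested and 0 passed, with -0.51 for Tap1, a peptide transporter, -0.37 for Ddit4, an inhibitor of mTORC1, and 0.30 for Dcxr, a reductase. The median log2 difference from 90 to 120 min was -0.01 (5 of 11 above 0), 0.02 (4 of 8) and 0.07 (8 of 10) for the 3 lists. Over all tested genes it was -0.01, with 47.5% above 0. The 10 targets had 0.15, but they were chosen with the 120 min results known. The counts of 0 stand beside those of all genes given above. For 90 against 30 min Eda2r and Ddit4 passed in 5 alternatives. Without no4sU replicate A the edgeR adjusted p was 0.0202 for Eda2r and 0.0206 for Ddit4, and without no4sU replicate B it was 0.0219 and 0.0221. In the fit of the labelled libraries it was 0.0201 and 0.0202, in that of the 2 groups 0.0306 and 0.0296, and with no filter 0.0469 and 0.0447.

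Of the p53-activated long non-coding RNAs, 2 of 4 were tested, and Dino is not analysed here. In the fit of all 12 libraries Lncpint was the single gene of all lists that passed, for 90 against 30 min, and earlier results of these data had already shown it. Its mean level was 2.26 CPM (no4sU), 2.93 CPM (15 min), 3.09 CPM (30 min), 7.87 CPM (60 min), 9.23 CPM (90 min) and 13.7 CPM (120 min), with an NTR of 95.1% at 60 min. It rose by a log2 fold change of 1.57 ± 0.235 (SE, edgeR adjusted p = 0.00213) from 30 to 90 min, at a mean count of 74.0 reads. The edgeR adjusted p was 0.0758 without 30 min replicate A, 0.0767 without 30 min replicate B and 0.0671 without 90 min replicate A, and DESeq2 gave none. Without no4sU replicate A or B it was 1.27e-05 or 9.73e-06. For 60 against 30 min Lncpint had a log2 fold change of 1.31 ± 0.239 (SE, edgeR adjusted p = 0.286), and the edgeR adjusted p was 0.00271 without no4sU replicate A, 0.0029 without no4sU replicate B, 0.00979 without 60 min replicate B, 0.00234 in the fit of the labelled libraries, 0.0198 in that of the 2 groups and 4.26e-07 with no filter. Pvt1, the other tested gene, was at -0.10.

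Of 16 regulators of p53, 15 were tested and 0 passed, and Cdkn2a is not analysed here. Trp53, which encodes p53, was at 215 ± 22.0 CPM (no4sU, SD with n = 2), 213 ± 9.66 CPM (30 min), 224 ± 2.36 CPM (90 min) and 224 ± 6.46 CPM (120 min). Its log2 fold change for 90 against 30 min was 0.07 ± 0.064 (SE, edgeR adjusted p = 0.632), and from 90 to 120 min it was 0.00. Wrap53 overlaps Trp53 on the other strand, and whether counting used strand is not given, so their reads may not be told apart. Mdm4, a relative of Mdm2 that blocks p53, was at 80.3 ± 12.9 CPM (no4sU), 77.2 ± 0.450 CPM (30 min), 70.2 ± 0.252 CPM (90 min) and 59.0 ± 1.11 CPM (120 min). Its log2 value was -0.14 ± 0.084 (SE, edgeR adjusted p = 0.480) for 90 against 30 min and -0.25 ± 0.086 from 90 to 120 min, where that of Mdm2 was 0.33. The other regulators with the largest values of 90 against 30 min were Sirt1 (-0.25), Ep300 (-0.18) and Hipk2 (0.16). Ep300, a histone acetyltransferase that also acetylates p53, passed without no4sU replicate A (edgeR adjusted p = 0.0299), without no4sU replicate B (0.0379), in the fit of the labelled libraries (0.0289) and in that of the 2 groups (0.0389). From 90 to 120 min the median of the regulators was -0.07, with 3 of 15 above 0, beside -0.01 and 47.5% above 0 over all tested genes.

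Likeness of course was measured as Pearson's r of log2(CPM + 1) over the 12 libraries, among the same 9065 genes, as a description. Most like Cdkn1a were U2af1l4 (0.937), Sbds (0.900), Ube2n (0.890), Mrpl51 (0.886) and Ift22 (0.876), all with a lower NTR of 16.4% to 42.6% at 120 min. Of the other targets, Btg2 was closest to Cdkn1a at the 10th rank (0.858), and Aen (0.700), Ccng1 (0.619), Mdm2 (0.610) and Phlda3 (0.607) were further down. Sesn2 (0.038) was the farthest. Most like Mdm2 were Junb (0.840), Myg1 (0.774), Prr3 (0.743), Cox19 (0.739) and Gm42742 (0.737). Junb, a short-lived immediate early gene with an NTR of 95.6% at 120 min, was at 30.8 CPM (no4sU), 27.7 CPM (90 min) and 31.8 CPM (120 min). The points share library depth and scaling, and both orders rest on 12 libraries.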

How the data were processed

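The 12 libraries were grouped by the sample titles, 2 per group, and columns were matched to samples by name, with 0 columns of no sample. The authors deposited estimated counts per gene and library, of which 20.4% were not whole (tolerance 1e-06). They were rounded for testing. The deposited NTR is a fraction, given per the file headers as posterior maximum, mean and 0.05 and 0.95 quantiles (a 90% interval). The alpha and beta columns are a deposited score and were not used. Cutadapt, Bowtie2 2.3.0 and STAR 2.7.10b are named per the submitters' processing notes. Genome build, annotation and strandedness were not given in the sources used here. Reads lost at alignment are not seen in these values.

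The count test was edgeR 4.0.16 under R 4.3.3 (filterByExpr, TMM, quasi-likelihood, all 12 libraries in a single fit, common biological coefficient of variation 4.44%, Benjamini-Hochberg over 11564 genes, threshold 0.05) for 60 against 30, 90 against 30 and 90 against 60 min. DESeq2 1.42.0 was the other tool. The SE is the absolute log2 fold change of edgeR divided by the square root of its quasi-likelihood F statistic. Like genes were the 100 nearest in NTR and log2 mean count, each divided by its SD, among genes whose mean count reached 100, with a pseudocount of 1 CPM. Half-lives used an NTR between 0.01 and 0.99. The scripts were tested on simulated data. Locations are from GENCODE M21 (GRCm38), not the authors' build. Python 3.11.15 was used.

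The 10 targets and all lists were chosen with earlier results of these data known. All 10 are named. From the other lists, genes past the threshold, Trp53, Mdm4 and Cdkn2a, and up to 3 others with the largest change in 90 against 30 min are named, and the 5 genes most correlated with Cdkn1a and with Mdm2. Alternatives were other scalings, no filter, DESeq2, fewer libraries in the fit, a replicate block, leaving out each library, other numbers of like genes, the posterior mean and another pseudocount. Over 15 pairs of groups, the differences between A and B correlated between -0.126 and 0.148, and 3 were over 0.1, so the letters were not taken as pairs.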

Additional observations from a re-analysis of the deposited data

How the results depend on the processing

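No result past its threshold changed direction under the alternatives run. The number of genes called moved most. For 90 against 30 min, 61 genes became 207 with library size alone (4 higher and 203 lower), 283 with no filter, 890 in the fit of the 10 labelled libraries (332 higher and 558 lower, against 2 and 59), 723 in the fit of the 2 groups alone, and 1 to 903 with 1 library left out. For 60 against 30 min, 0 genes became 9 with no filter, 23 in the fit of the labelled libraries, 13 in that of the 2 groups, and 0 to 21 with 1 library left out. For 90 against 60 min these were 11, 20, 21 and 0 to 21. The cause was not tested. Where a library was left out of a pair, the other was assumed to vary like the other groups. The replicate block gave 99 genes for 90 against 30 min and 0 in the other 2 comparisons, and no target was called with it.

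The median difference of the targets from like genes was between -0.067 and -0.029 at 30 min with 1 library left out, between -0.082 and 0.0032 at 60 min, between -0.023 and 0.081 at 90 min, and between 0.205 and 0.336 at 120 min, where likeness by the 30 min NTR gave 0.26. For 90 against 30 min Mdm2, Eda2r and Ddit4 gained a call in 5 alternatives each and Ep300 in 4, and Lncpint lost its call in 3. For 60 against 30 min Lncpint gained a call in 6. At 120 min all 10 targets stayed above their like genes under all 10 alternatives of each. Nothing is read from this, since the 120 min results were known when the genes were chosen. Btg2 and Trp53inp1, with about 106 and 112 reads per library, are limited by depth. The 2 libraries per group limit all values.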
